A study of Mus musculus with 18 samples.

Results

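The 7 mouse sirtuins, Sirt1 to Sirt7, and 3 genes that make or break down their cofactor NAD, Nampt, Nmnat1 and Cd38, were followed in bone marrow mesenchymal stem cells (MSCs). These 10 genes were taken by symbol from the 27179 genes of the table, all 10 were found, and 9 of them passed the filter for testing (normalized counts averaging 10 or more across the 18 libraries). The exception was Cd38, with a mean of 9.38. RNA was sequenced from 6 young, 6 old and 6 rejuvenated old MSC cultures of C57BL6 mice, all harvested after 7 days. Young MSCs came from male mice of 6 weeks and old MSCs from male mice of 18 to 24 months, and neither group had a treatment. Rejuvenated old MSCs were old MSCs kept for those 7 days opposite young MSCs on a membrane with 0.4 µm pores, which lets soluble factors but no cells pass, with 100000 cells per culture. No old MSCs grown opposite other old MSCs were used here, so the presence of a second cell layer and its age cannot be told apart. The titles call the libraries biological replicates, but not whether each came from its own mouse, so the p-values measure the spread between these cultures.

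Sirtuins remove acetyl and other acyl groups from proteins and use up NAD in doing so, releasing nicotinamide. Sirt1, Sirt6 and Sirt7 work mainly in the nucleus, Sirt2 mainly in the cytosol, and Sirt3, Sirt4 and Sirt5 in mitochondria. Nampt, the rate-limiting enzyme of the salvage route, and the NMNAT enzymes turn nicotinamide back into NAD, whereas Cd38 cleaves NAD. In many tissues a fall of NAD and of sirtuin activity with age has been described.

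The promoters of Sirt1, Sirt2 and Nampt are shown because Sirt1 and Sirt2 were both higher in young MSCs while Nampt was lower. Each run holds the 250 bases before the start of the gene as given by RefSeq for GRCm38.p6. Capitals mark the letters CACGTG (the E-box read by clock and MYC family factors) or ACGTG (the core of the hypoxia response element), searched on both strands, so that a CACGTG also counts as ACGTG on each strand.
Sirt1, chr10:63339036-63339285, minus strand: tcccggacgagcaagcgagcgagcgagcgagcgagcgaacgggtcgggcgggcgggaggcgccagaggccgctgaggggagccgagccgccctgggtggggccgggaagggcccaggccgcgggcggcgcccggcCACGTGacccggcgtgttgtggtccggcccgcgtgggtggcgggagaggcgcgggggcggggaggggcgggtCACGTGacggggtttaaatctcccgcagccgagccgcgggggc
Sirt2, chr7:28766502-28766751, plus strand: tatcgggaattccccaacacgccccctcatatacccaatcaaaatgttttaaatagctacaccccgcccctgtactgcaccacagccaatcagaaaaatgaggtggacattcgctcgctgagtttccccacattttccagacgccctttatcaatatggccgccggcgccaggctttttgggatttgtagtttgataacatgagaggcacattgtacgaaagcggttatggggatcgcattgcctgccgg
Nampt, chr12:32820085-32820334, plus strand: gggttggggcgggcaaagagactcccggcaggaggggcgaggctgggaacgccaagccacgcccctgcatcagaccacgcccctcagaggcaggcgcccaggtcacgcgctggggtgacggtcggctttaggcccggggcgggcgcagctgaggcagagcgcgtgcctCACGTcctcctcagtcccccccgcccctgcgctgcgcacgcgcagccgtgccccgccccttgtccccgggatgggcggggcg
The Sirt1 window held CACGTG 2 times, 115 and 43 bases before the start. Of 32851 mouse promoter windows of this length, 6.02% held it at least once and 0.429% at least 2 times. The Sirt1 window held 39 CG pairs, against a median of 6 per window, and these shares are not matched for CG pairs. ACGTG, which 16.6% of windows held alone or within CACGTG, stood alone once in Nampt, 82 bases before the start. It also stood alone once in Sirt5, and 2 times each in Sirt4 and in 1 of the 2 Sirt6 windows. The Sirt4 window (chr5:115484298-115484547) lies inside the gene span given below, and the Sirt5 window and that Sirt6 window overlap theirs. Their matches fall inside those spans, not before them. No match was found in the windows of Sirt2, Sirt3, Sirt7, Nmnat1 or Cd38.

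Reads on genes numbered 22936251 to 25648769 per young library, per old library 24965971 to 29559194 and per rejuvenated old library 26018046 to 29155223, so every young library was shallower than every rejuvenated old one. The stromal markers Pdgfra, Pdgfrb and Col1a1 were found in every library, whereas Thy1 had at most 3 reads in any old library. Of 10 stromal markers, 3 were called higher and 7 lower in young than in old MSCs. The largest differences were in Thy1 (log2 6.7), Eng (log2 -5.48) and Cxcl12 (log2 -4.42). Eng averaged 163 normalized counts in young and 7340 in old libraries, and Cxcl12 9227 and 197400. Of 12 macrophage markers, 1 was called higher and 11 lower. Their sum was 1001 to 1111 normalized counts in the young libraries, 12930 to 16250 in the old and 12900 to 15810 in the rejuvenated old. Ptprc (CD45) and Adgre1 (F4/80) had no read in any young library and means of 179 and 296 in the old ones. The part that macrophage RNA or these stromal differences play in the levels of the sirtuin and NAD genes was not tested. Rejuvenated old replicate 1 stood apart in a pair of genes that young MSCs held at high levels. Cd34 was at 402 normalized counts there against 24.2 to 41.9 in the other rejuvenated old libraries, and Thy1 at 21.6 against at most 0.951, while the young libraries held 6787 to 7191 and 175 to 227. Nt5e was not raised in it (19.6, against 12.3 to 21.4), and the calls of the sirtuin and NAD genes are given with and without this library. In bulk RNA, fewer cells of a type and less RNA per cell cannot be told apart. Of all tested genes, 85.7% were called between young and old MSCs, 41.6% when rejuvenated old MSCs were set against old and 85.6% when they were set against young MSCs, where called means a Benjamini-Hochberg adjusted p under 0.05 by limma.

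**Figure D1:**
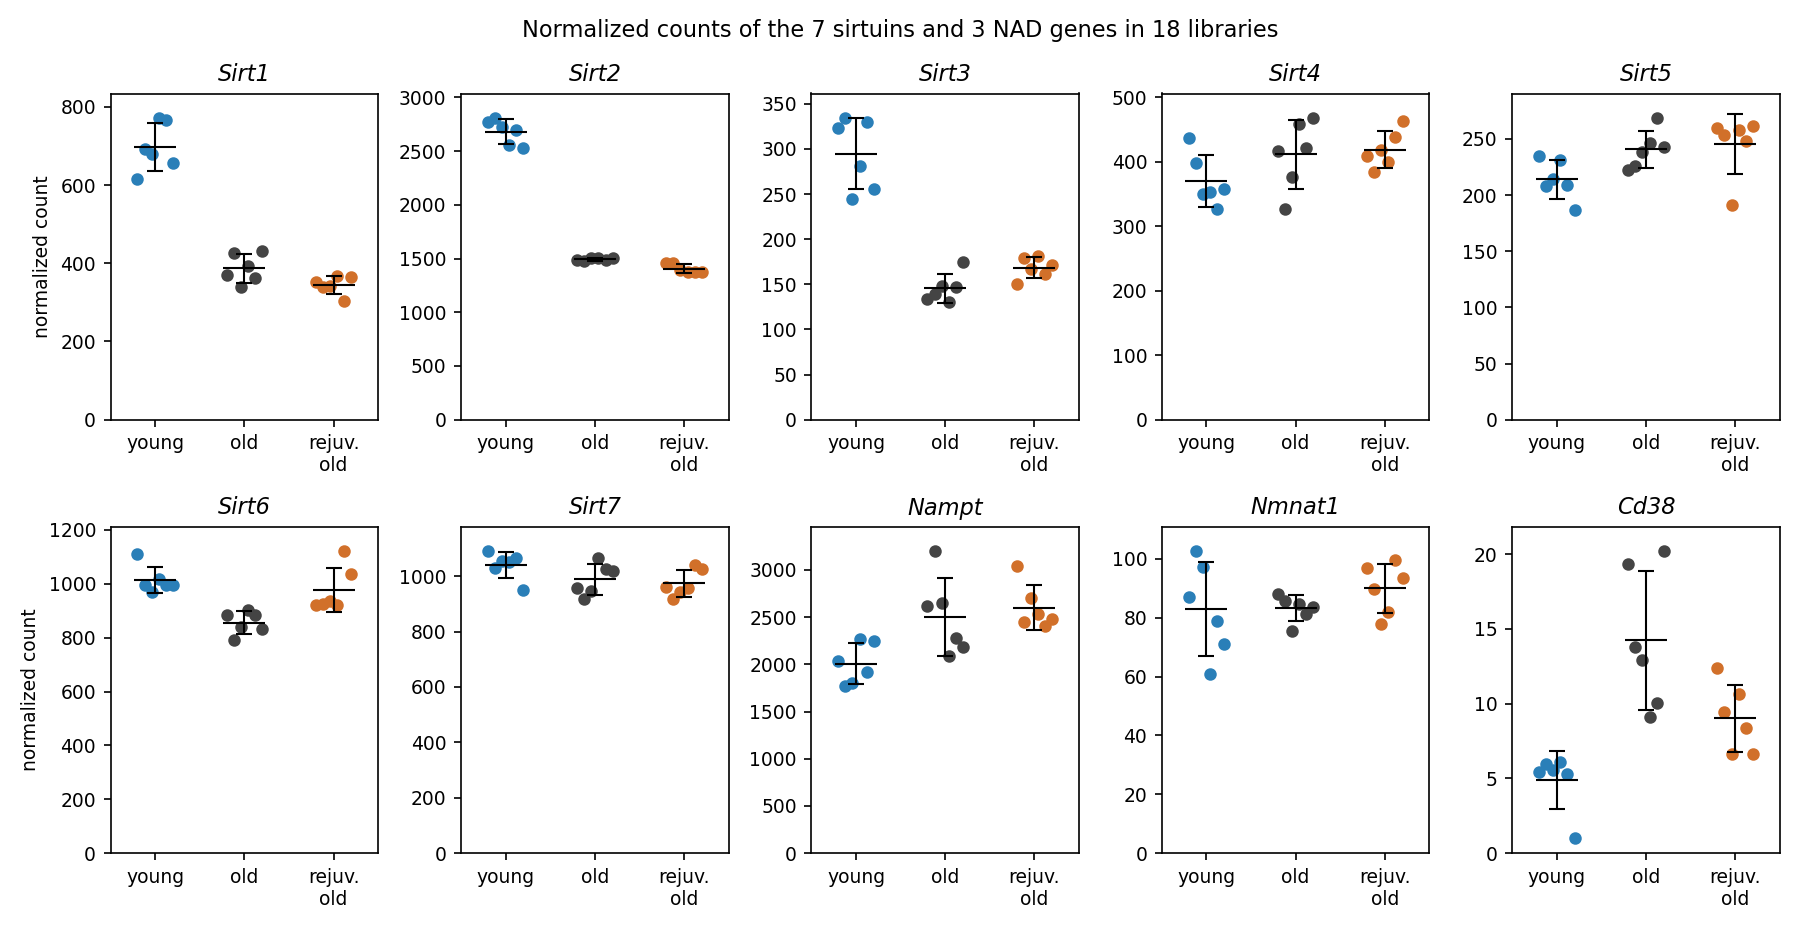
Normalized counts (reads divided by a size factor for each library, vertical axis from 0) of the 10 genes in 6 young, 6 old and 6 rejuvenated old libraries, where each point is a library, the wide bar is the mean and the whiskers are the SD. The 6 young libraries stand above all 12 others for Sirt1, Sirt2 and Sirt3, while Sirt4, Sirt5, Sirt7 and Nmnat1 overlap between all groups.

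Young MSCs held more Sirt1, Sirt2 and Sirt3 RNA than old MSCs, with means 1.79 to 2.03 times the old, and slightly more Sirt6. Nampt was lower in young MSCs. Of the 9 genes tested, 5 were called, 4 higher (41.6% of all genes tested) and 1 lower (44.1%), so the called share was below the 85.7% of all genes. In 4 genes, the same that were called higher, the young and old libraries did not overlap, which held for 73.9% of all genes. The median size of the 9 log2 fold changes was 0.25, against 0.60 for all genes, and their median was 0.07, against -0.02.

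Among the nuclear sirtuins, Sirt1 (chr10:63319005-63339035), a deacetylase of histones and of factors such as p53 and PGC-1α, had a lowest, median and highest normalized count of 615, 687 and 772 in the young libraries. In the old libraries it had 338, 380 and 432, and in the rejuvenated old libraries 303, 347 and 367. All 6 young libraries lay above the 12 others, and the old and rejuvenated old libraries overlapped. The young mean was 1.80 times the old (log2 fold change 0.85 ± 0.07 SE, n = 6 each, limma adjusted p = 7.4e-11).

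Sirt6 (chr10:81621787-81627792), which acts on chromatin in DNA repair and at telomeres, ran from 969.9 over 997 to 1110.0 in the young libraries, from 791 over 861 to 904 in the old and from 921 over 931 to 1121 in the rejuvenated old. The old libraries lay below all others, and the young and rejuvenated old libraries overlapped. The young mean was 1.19 times the old (log2 0.25 ± 0.05, limma adjusted p = 0.000106).

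Sirt7 (chr11:120618371-120625014), which acts in the nucleolus on ribosomal gene transcription, had 950.4, 1053 and 1090.4 in the young libraries, 919, 987 and 1065 in the old and 918, 959 and 1039 in the rejuvenated old. The groups overlapped, and the difference between young and old was not called (log2 0.07, 95% interval -0.02 to 0.17, limma adjusted p = 0.117). Scaling each library to the same total gave a call (log2 0.15, adjusted p = 0.00454).

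Sirt2 (chr7:28766752-28788665), a deacetylase of tubulin, was the most abundant sirtuin per kilobase of annotated exon in young MSCs. It had the smallest relative spread of the 10 genes between old libraries. It ran from 2530.0 over 2711 to 2812 in the young libraries, from 1477 over 1496 to 1508 in the old and from 1372 over 1385 to 1461 in the rejuvenated old. No 2 of the 3 groups overlapped. The young mean was 1.79 times the old (log2 0.84 ± 0.03, limma adjusted p = 2.63e-17).

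Of the mitochondrial sirtuins, Sirt3 (chr7:140863663-140882309), the main deacetylase of that compartment, had the largest fold of the 9 genes between young and old MSCs. Its lowest, median and highest counts were 245, 302 and 335 in the young libraries, 131, 143 and 175 in the old and 150.3, 169.6 and 182 in the rejuvenated old. The young libraries stood apart from all others, and the old and rejuvenated old libraries overlapped. The young mean was 2.03 times the old (log2 1.01 ± 0.09, limma adjusted p = 4.01e-10). Of the Sirt3 exon bases, 7% are shared with Ric8a and 5.73% with Psmd13 on the opposite strand, and the strand setting of the counting is not given in the sources used here.

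Sirt4 (chr5:115478006-115490264), a mitochondrial sirtuin with little deacetylase activity, had medians of 355, 419 and 413 in young, old and rejuvenated old libraries, over ranges of 327 to 436, 327 to 468.5 and 384 to 463. Sirt5 (chr13:43365389-43395203), which removes succinyl and malonyl groups, had medians of 212, 240.2 and 256, over ranges of 186 to 235, 223 to 269 and 191 to 261. The 3 groups overlapped for both genes. Neither difference between young and old was called (log2 -0.15, 95% interval -0.32 to 0.02, limma adjusted p = 0.0946 for Sirt4, and log2 -0.17, interval -0.33 to -0.00497, limma adjusted p = 0.0514 for Sirt5). The Sirt5 value stood next to the threshold and was called in several other settings.

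Nampt (chr12:32820335-32853369) had 1768, 1976 and 2269 normalized counts in the young libraries, 2089.7, 2449.6 and 3199 in the old and 2406, 2507 and 3037 in the rejuvenated old. Young and old libraries overlapped, whereas every rejuvenated old library lay above every young one. The young mean was 0.802 times the old (log2 -0.31 ± 0.09, limma adjusted p = 0.00218). Nmnat1 (chr4:149467569-149485210), the nuclear enzyme that joins NMN to ATP to form NAD, had 60.7, 83.0 and 102.6 in the young libraries, 75.4, 84.1 and 88.2 in the old and 78.0, 91.5 and 99.6 in the rejuvenated old. The groups overlapped, and the difference between young and old was not called (log2 -0.02, 95% interval -0.26 to 0.21, limma adjusted p = 0.846).

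Cd38 (chr5:43868809-43912374), a membrane enzyme that cleaves NAD and is abundant on blood cells, was close to the limit of detection. The young libraries held 1 to 6 reads, the old 10 to 21 and the rejuvenated old 7 to 12. Young libraries had 1.03, 5.51 and 6.07 normalized counts as lowest, median and highest, old libraries 9.09, 13.4 and 20.2, and rejuvenated old libraries 6.60, 8.91 and 12.4. The young libraries lay below all others, and the old and rejuvenated old libraries overlapped. By an exact two-sided permutation test over the libraries, adjusted over 3 comparisons, Cd38 was lower in young than in old (log2 -1.42, p = 0.00216, the smallest the design allows, adjusted p = 0.00325). Rejuvenated old against old gave log2 -0.58 (exact permutation p = 0.0303, adjusted p = 0.0303), and without rejuvenated old replicate 1 log2 -0.67 (exact permutation, adjusted p = 0.0216). The call did not hold with limma over all genes with a read (adjusted p = 0.19), where 26.4% of genes were called between rejuvenated old and old. The same limma fit gave an adjusted p of 0.000284 for young against old and 0.0202 for rejuvenated old against young, comparisons in which it called 65.8% and 65.3% of genes. Leaving out 1 library at a time ended the exact call of rejuvenated old against old for 6 of 12 libraries (adjusted p up to 0.0606). Cd38 was lowest in the libraries in which Ptprc and Adgre1 were at 0, and whether the macrophage RNA plays a part was not tested.

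Whole chromosomes shifted between young and old MSCs, so each gene was set beside the median log2 fold change of the other tested genes on its chromosome. The largest of these shifts that touched the sirtuins was on chromosome 7, with a median of 0.61 over 1031 other genes. Sirt2 and Sirt3 both lie there, and their excess over it was 0.23 and 0.40, so that 62.4% and 69.9% of the chromosome's genes had smaller values. Sirt1 and Sirt6 lie on chromosome 10, where the median was -0.20, and they exceeded it by 1.05 and 0.44. Of the chromosome's genes, 86.2% lay below Sirt1. Nampt lies on chromosome 12 with a median of -0.46, so that its value stood above the chromosome's median and turned to 0.15 relative to it. The median for Sirt5 on chromosome 13 was -0.30, and its own value lay 0.13 above it.

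**Figure D2:**
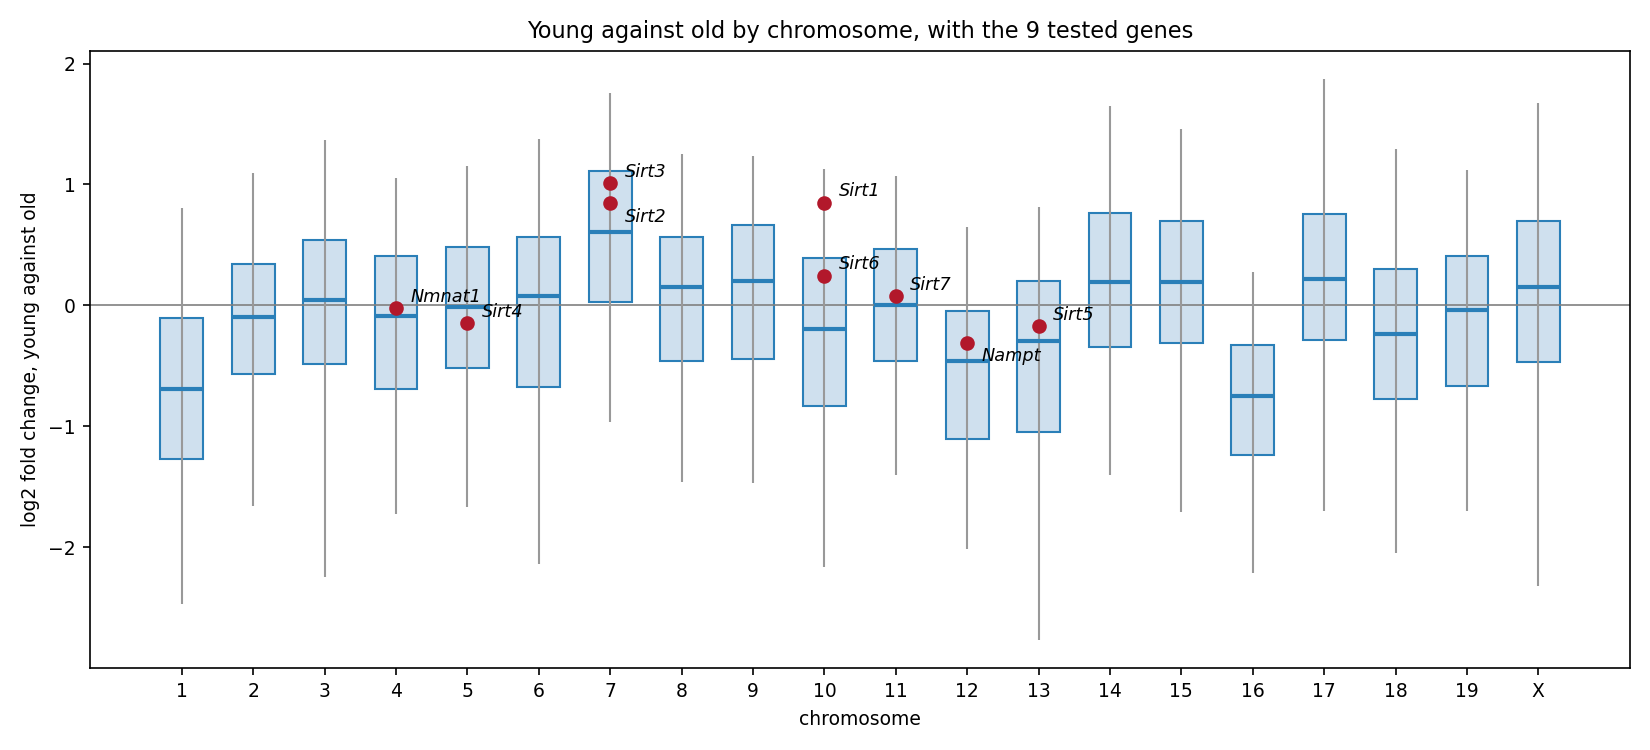
Log2 fold changes of young against old MSCs (vertical axis) by chromosome (horizontal axis), where boxes span the quartiles, thin lines the 10% to 90% range and thick lines the median of all tested genes, and red points are the 9 tested genes. Sirt2 and Sirt3 lie within the box of chromosome 7, whereas Sirt1 lies above the box of chromosome 10.

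The sirtuins differed little between old MSCs with and without 7 days opposite young MSCs. Of the 9 tested genes, 2 were called between rejuvenated old and old MSCs, Sirt6 higher (21.0% of all genes) and Sirt2 lower (20.6%), against 41.6% of all genes in either direction. These were also the 2 genes whose libraries did not overlap, as in 22.0% of all genes. Sirt6 rose to 1.14 times the old mean (log2 0.19 ± 0.05, limma adjusted p = 0.00459), with every rejuvenated old library above every old one. Sirt2 fell to 0.941 times the old mean (log2 -0.09 ± 0.03, limma adjusted p = 0.0252), with every rejuvenated old library below every old one. Without rejuvenated old replicate 1, 3 genes were called, Sirt6 (log2 0.20, limma adjusted p = 0.00353), Sirt2 (log2 -0.10, limma adjusted p = 0.0159) and Sirt3 (log2 0.25, limma adjusted p = 0.0384). Leaving out rejuvenated old replicate 4 left Sirt6 as the one call (Sirt2 adjusted p = 0.0507).

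Sirt1 and Sirt3 stood just outside the threshold. Sirt1 was called in 1 of the fits with a library left out and in 2 other settings, and Sirt3 in 3 and 1. Sirt1 was at 0.892 times the old mean (log2 -0.16, 95% interval -0.30 to -0.02, limma adjusted p = 0.0633) and Sirt3 at 1.16 times (log2 0.21, interval 0.03 to 0.40, limma adjusted p = 0.0604). For the other 5 genes the log2 differences ran from -0.02 (Sirt7) to 0.11 (Nmnat1). The interval for Nampt was -0.11 to 0.25, for Sirt4 -0.14 to 0.20, for Sirt5 -0.14 to 0.19, for Sirt7 -0.11 to 0.07 and for Nmnat1 -0.13 to 0.35. The 9 log2 differences had a median size of 0.09, against 0.15 for all genes. Chromosome medians (log2) were within 0.06 of 0 for these genes. The macrophage marker sums of old and rejuvenated old libraries overlapped.

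Rejuvenated old MSCs held about as little Sirt1, Sirt2 and Sirt3 RNA as old MSCs when set against young MSCs. Against young MSCs, 7 of 9 genes were called, 3 higher (44.1% of all genes) and 4 lower (41.5%), with 85.6% of all genes called. Sirt1 was at 0.495 times the young mean (log2 -1.01 ± 0.07, limma adjusted p = 3.16e-12). Sirt2 was at 0.524 times (log2 -0.93 ± 0.03, limma adjusted p = 4.09e-18) and Sirt3 at 0.571 times (log2 -0.80 ± 0.09, limma adjusted p = 2.45e-08). Nampt was 1.30 times the young mean (log2 0.38 ± 0.09, limma adjusted p = 0.000367). In these 4 genes the libraries did not overlap, as in 70.5% of all genes. Without rejuvenated old replicate 1 these 4 genes were still called, with log2 values of -1.02, -0.94, -0.76 and 0.33. Relative to its chromosome, Nampt turned to -0.08.

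Sirt4 (log2 0.18, limma adjusted p = 0.0439), Sirt5 (log2 0.19, limma adjusted p = 0.0295) and Sirt7 (log2 -0.10, limma adjusted p = 0.049) were called with overlapping libraries, and without rejuvenated old replicate 1 none of these 3 was, which left 4 calls. Sirt6 was not called (log2 -0.06, 95% interval -0.16 to 0.05, limma adjusted p = 0.289), but with libraries scaled to the same total it was called lower (log2 -0.15, adjusted p = 0.0116), and Sirt4 and Sirt5 were not. Nmnat1 was not called (log2 0.13, interval -0.10 to 0.37, limma adjusted p = 0.279). This comparison shares its libraries with the other comparisons.

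**Figure D3:**
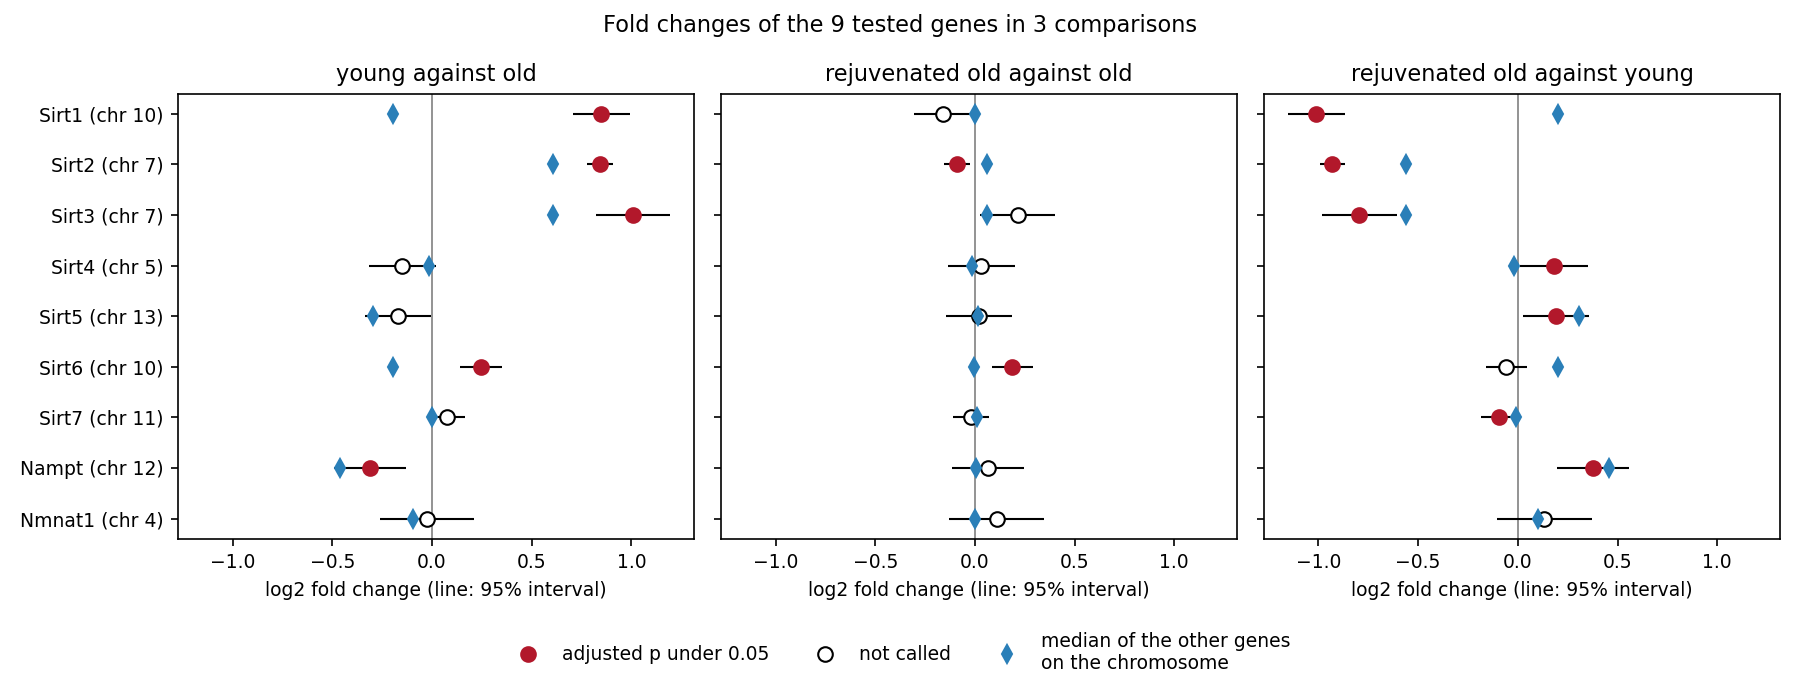
Log2 fold changes (horizontal axis) of the 9 tested genes in the 3 comparisons, where lines are 95% intervals from limma, filled points have an adjusted p under 0.05 and blue diamonds give the median of the other tested genes on the same chromosome. Sirt1 lies far from its diamond in both comparisons with young MSCs, while Nampt and Sirt5 lie near theirs.

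Levels were compared between genes as reads per kilobase of exon, scaled to the reads on genes of each library (RPKM). The length was the union of all annotated exons of a gene, 5.035 kb for Sirt2 and 2.785 kb for Sirt6. It can exceed the length of the transcripts present, so the order between genes depends on this choice, and other lengths were not tried. In young MSCs, Sirt2 was highest with 20.9 ± 0.9 (SD, n = 6), followed by Nampt with 15.6 ± 1.7, Sirt6 with 14.3 ± 0.7 and Sirt7 with 7.93 ± 0.36. Sirt4 followed with 6.06 ± 0.65 and Sirt1 with 5.13 ± 0.45, and Sirt3 (1.94 ± 0.26), Sirt5 (1.38 ± 0.11), Nmnat1 (1.07 ± 0.20) and Cd38 (0.0495 ± 0.0194) were lowest. Nampt and Sirt6 overlapped over the young libraries, as did Sirt4 and Sirt1 and, lower down, Sirt5 and Nmnat1. In old MSCs, Nampt led with 18.4 ± 2.9 RPKM, and Sirt6 with 11.5 ± 0.6 and Sirt2 with 11.1 ± 0.1 overlapped each other. Sirt1 stood at 2.70 ± 0.27 in old MSCs, below Sirt4 with 6.40 ± 0.86, and Sirt3 with 0.908 ± 0.107 overlapped Nmnat1 with 1.02 ± 0.05. Rejuvenated old MSCs had Nampt at 18.97 ± 1.84, Sirt6 at 12.9 ± 1.1 and Sirt2 at 10.3 ± 0.4 RPKM. There the lowest Sirt6 library (11.98 RPKM) lay above the highest Sirt2 library (10.8 RPKM), with these lengths an order opposite to that in young MSCs.

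The genes most alike to each tested gene were found by the root mean square difference of centred log2 levels over the 18 libraries. The genes nearest to Sirt1 were Aff4, Usp3 and Slc17a5, at 0.0996 to 0.111, against a median of 0.564 over all genes. Those nearest to Sirt2 were Btg1, Rnf40 and Ncam1, at 0.0545 to 0.0565, of which Rnf40 also lies on chromosome 7. Nampt was nearest to Tdrd7, Ddx24 and Dcp2, at 0.0696 to 0.0977, of which Ddx24 lies on chromosome 12 like Nampt. Sirt6 was nearest to Trip10, Pabpn1 and Slc44a2, at 0.058 to 0.07. Zfp651, Thap3 and Pdcd2l were nearest to Sirt3, at 0.128 to 0.133. Sirt4 (Zfp513, Ttc5, Zfp523), Sirt5 (Zfp560, Ttc5, Eml1), Sirt7 (Cxxc1, Cdk5, Cyhr1) and Nmnat1 (Manbal, Arl16, Cyp4f13) had their nearest genes at 0.0471 to 0.145.

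Around these genes, the other enzymes that make or recycle NAD moved in both directions. Of 18 listed genes 10 were tested, and 4 were higher and 4 lower in young than in old MSCs (80% called, against 85.7% of all genes, with a median log2 of -0.03, against -0.02). Nadsyn1, which makes NAD from the nicotinic acid side, averaged 621 ± 45 normalized counts (SD, n = 6) in young and 224 ± 29 in old MSCs (log2 1.48, limma adjusted p = 1.79e-14). Nadk, which phosphorylates NAD to NADP, was lower in young with 2141 ± 50 against 3710.0 ± 156 (log2 -0.79, limma adjusted p = 8.01e-15), and so was Ido2, a tryptophan dioxygenase of the de novo route, with 17.4 ± 7.0 against 101.5 ± 18.2 (log2 -2.54, limma adjusted p = 3.39e-11). Tdo2, Ido1, Kmo, Kynu, Haao and Qprt, also of the de novo route, fell below the filter and were not tested. Afmid of that route was tested and not called (log2 -0.03, limma adjusted p = 0.656). Nadsyn1 also lies on chromosome 7. Between rejuvenated old and old MSCs, 3 were higher and 3 lower (60% called, against 41.6% of all genes). The NMNAT genes of the other compartments fell, Nmnat2 (Golgi and cytosol) from 964 ± 57 to 612.5 ± 29.5 (log2 -0.65, limma adjusted p = 7.78e-11) and Nmnat3 (mitochondria) from 114 ± 10 to 88.6 ± 10.6 (log2 -0.37, limma adjusted p = 0.00158). Ido2 rose to 153 ± 23 (log2 0.60, limma adjusted p = 0.0186). Against young MSCs 4 of the 10 were higher and 4 lower in rejuvenated old MSCs (80% called, against 85.6%), led by Ido2 (log2 3.13), Nadsyn1 (log2 -1.46) and Nmnat3 (log2 -0.93).

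Of 18 listed genes, of the poly(ADP-ribose) polymerase (PARP) family or of other enzymes that cleave NAD, 17 were tested. Between young and old MSCs, 5 were higher and 5 lower (58.8% called, against 85.7% of all genes, median log2 -0.00309). Parp1, the main poly(ADP-ribose) polymerase of DNA repair, averaged 1523 ± 37 in young and 2800.0 ± 91 in old MSCs (log2 -0.88, limma adjusted p = 5.34e-17), and Parp3 2812 ± 99 against 5744 ± 316 (log2 -1.03, limma adjusted p = 4.68e-17). Parp6 was higher in young with 1086 ± 62 against 547 ± 45 (log2 0.99, limma adjusted p = 9.09e-14). Parp1 lies on chromosome 1, whose genes had a median of -0.69 on the log2 scale. Between rejuvenated old and old MSCs, 3 were higher and 5 lower (47.1% called, against 41.6% of all genes). Sarm1, an NAD-cleaving enzyme of axon degeneration, fell from 60.1 ± 7.7 to 32.7 ± 11.4 (log2 -0.92, limma adjusted p = 0.00053), Parp8 fell from 2055 ± 112 to 1549 ± 57 (log2 -0.41, limma adjusted p = 2.35e-08) and Parp16 rose from 231 ± 22 to 343 ± 29 (log2 0.57, limma adjusted p = 1.55e-06). Against young MSCs, 6 of the 17 were higher and 6 lower in rejuvenated old MSCs (70.6% called, against 85.6%). The largest differences were in Sarm1 (log2 -1.54 ± 0.19 SE), Parp14 (log2 0.89 ± 0.29) and Parp1 (log2 0.89 ± 0.03). Parp14 spread widely between libraries, with 1448 ± 558 in rejuvenated old and 761.5 ± 228 in young MSCs.

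Of 12 genes that clear or carry nicotinamide and its nucleotides, 11 were in the table and 10 were tested, of which 5 were higher and 4 lower in young than in old MSCs (90% called, against 85.7% of all genes, median log2 0.12). Nt5e (CD73), an ecto-enzyme that splits extracellular nucleotides, averaged 295 ± 27 in young and 15.9 ± 3.8 in old MSCs (log2 4.15, limma adjusted p = 3.59e-17). Enpp1, an ecto-pyrophosphatase, averaged 1452 ± 86 against 159.9 ± 15.6 (log2 3.18, limma adjusted p = 2.19e-21). Slc29a1 (ENT1), a nucleoside carrier, was lower in young with 3428 ± 107 against 15090 ± 753 (log2 -2.14, limma adjusted p = 1.07e-23). Between rejuvenated old and old MSCs, 3 were higher and 3 lower (60% called, against 41.6% of all genes), led by Aox1, an oxidase of nicotinamide derivatives, which fell from 1782 ± 111 to 1028 ± 92 (log2 -0.80, limma adjusted p = 6.83e-10). Enpp1 rose to 217 ± 20 (log2 0.44, limma adjusted p = 3.22e-05) and Pnp, which splits nucleosides, from 3776 ± 460 to 4731 ± 270 (log2 0.33, limma adjusted p = 6.33e-05). Against young MSCs 3 of the 10 were higher and 6 lower in rejuvenated old MSCs (90% called, against 85.6%), led by Nt5e (log2 -4.05), Enpp1 (log2 -2.74) and Slc29a1 (log2 2.35).

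Among 15 regulators and substrates of sirtuins, 13 were tested, and 7 were higher and 3 lower in young than in old MSCs (76.9% called, against 85.7% of all genes, median log2 0.33). Hic1, a repressor of Sirt1 transcription, averaged 141.5 ± 16.7 in young and 1411 ± 57 in old MSCs (log2 -3.31, limma adjusted p = 2.66e-23). Its direction was opposite to that of Sirt1, as in the 44.1% of all tested genes called lower in young MSCs. Ccar2 (2099 against 1421, log2 0.56) and Rps19bp1 (1135 against 731.8, log2 0.63), also listed regulators, were higher in young MSCs, like Sirt1. Whether any of these 3 genes plays a part in the Sirt1 level was not tested. Ppargc1a, which encodes the Sirt1 substrate PGC-1α, averaged 59.7 ± 2.8 in young MSCs and had at most 5 reads in any old library (limma adjusted p = 9.1e-10). Acadl, a fatty acid oxidation enzyme deacetylated by Sirt3, was lower in young with 821 ± 31 against 2159 ± 88 (log2 -1.39, limma adjusted p = 2.53e-19), and it lies on chromosome 1. Between rejuvenated old and old MSCs, 6 of the 13 were higher and the other 7 were not called (46.2% called, against 41.6% of all genes, median log2 0.09). Mlycd, the malonyl-CoA decarboxylase, rose from 527 ± 27 to 622.5 ± 48.7 (log2 0.24, limma adjusted p = 0.00079), Tfam, a factor of mitochondrial DNA, from 1071 ± 41 to 1227 ± 66 (log2 0.20, limma adjusted p = 0.000335), and Idh2, a mitochondrial isocitrate dehydrogenase deacetylated by Sirt3, from 2891 ± 46 to 3308 ± 177 (log2 0.19, limma adjusted p = 3.44e-05). Hic1 itself was not called between rejuvenated old (1344 ± 29) and old MSCs (limma adjusted p = 0.366). Against young MSCs 3 of the 13 were higher and 7 lower in rejuvenated old MSCs (76.9% called, against 85.6%), with the largest fitted differences in Ppargc1a, Hic1 (log2 3.25) and Acadl (log2 1.52). Without rejuvenated old replicate 1, the number called in the list of PARP family and other NAD-cleaving enzymes went from 8 to 9 between rejuvenated old and old MSCs. The numbers of the other 3 lists and of all 4 lists in the other comparisons stayed the same.

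**Figure D4:**
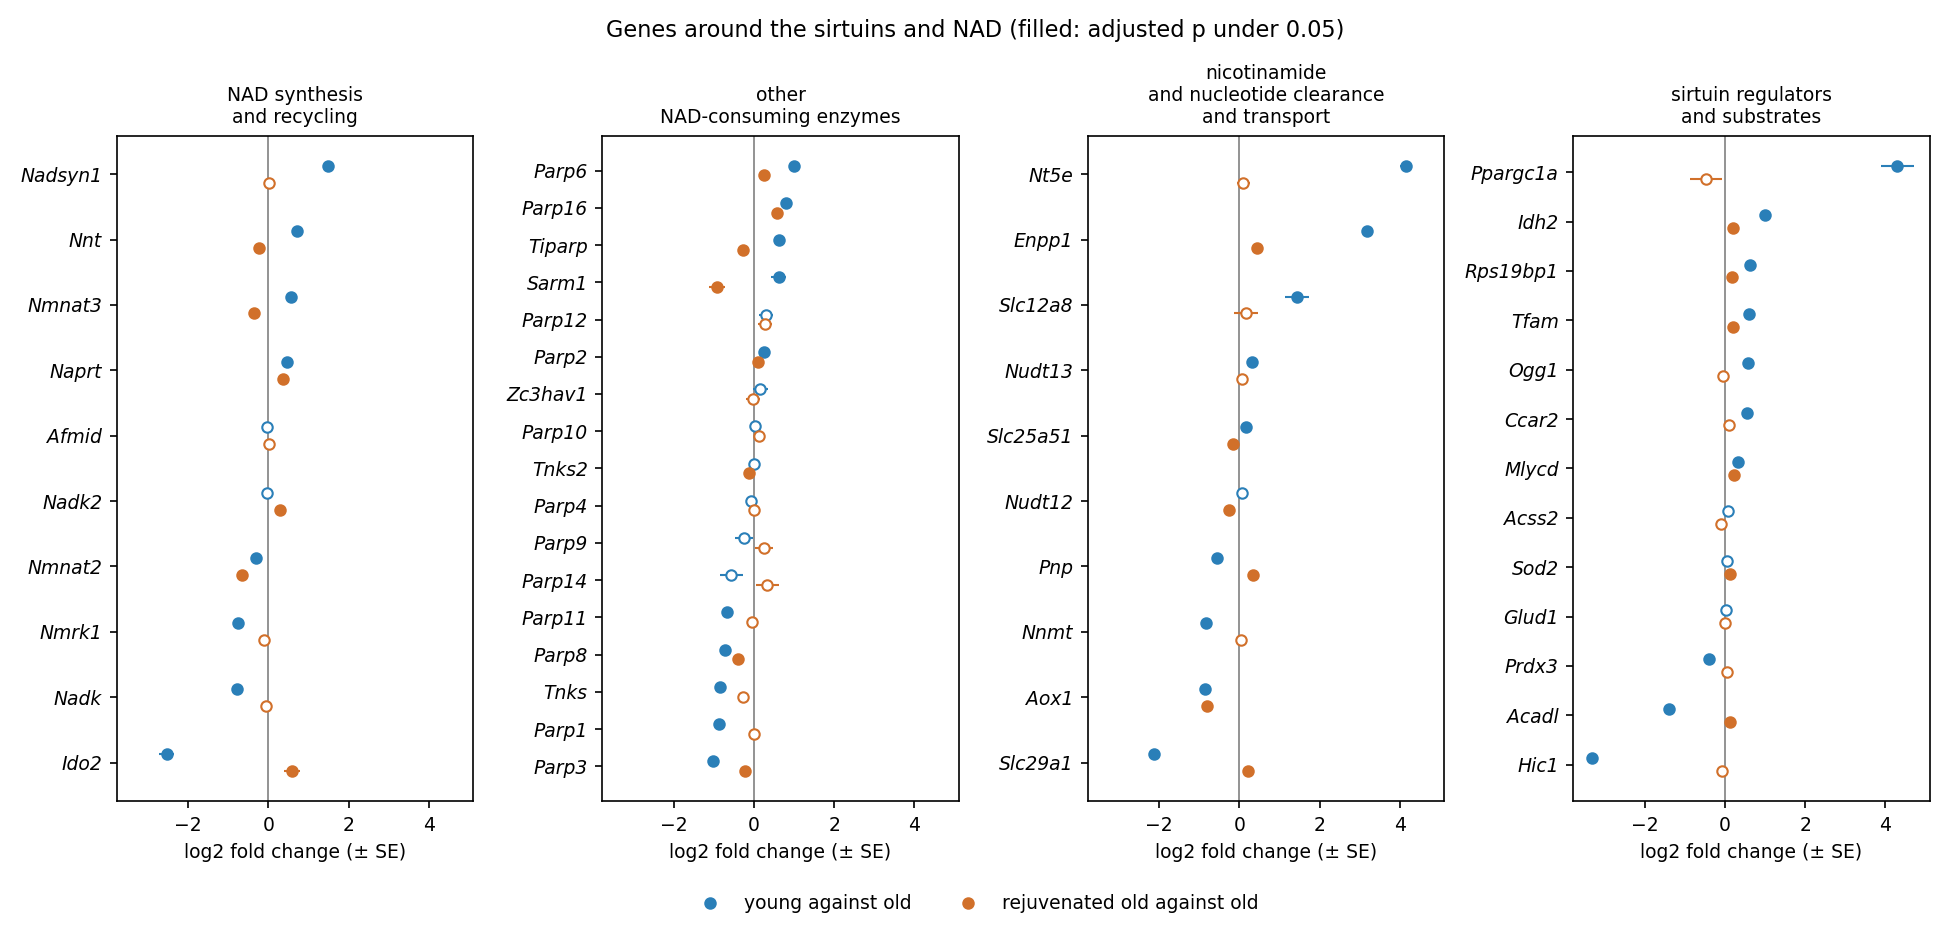
Log2 fold changes ± SE (horizontal axis) of the tested genes of 4 lists, for young against old (blue) and rejuvenated old against old (orange), where filled points have an adjusted p under 0.05. The blue points spread from below -3 to above 4, while the orange points of all 4 lists lie between -1 and 1.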

How the data were processed

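RNA from 18 mouse MSC cultures was sequenced with a stranded mRNA kit. Per the labels and the methods of the study, the authors used HISAT2, StringTie, featureCounts and DESeq2 with mm10. The annotation, strand setting and versions are not given in the sources used here. What the authors deposited is a signal, the read count of a gene divided by the size factor of its library. Dividing by the value of 1 read gave whole reads for 100.0% of the values (within 0.01 of a read). Chromosomes and positions came from RefSeq GRCm38.p6, which matched 25275 of 27179 genes, and exon lengths and overlaps from GENCODE M21 (union of exons, in place of RefSeq transcript lengths).

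Values were tested as log2(normalized count + 1) with limma 3.58.1 (R 4.3.3), in 1 fit over the 3 groups with a variance trend, over the 14353 genes averaging 10 or more. Fold changes are on this scale, which understates low genes. Cd38 fell below the filter, and its exact permutation test (scipy 1.17.1) was chosen after seeing that. The fit was tested on simulated counts in which a small set of genes changed, in the rejuvenated old group alone. That setting is unlike these data, where most tested genes were called between young and old. Alternatives covered pseudocounts (0.5, 10), filters (none, 50), scalings, 2 groups, a single prior variance, a replicate block, edgeR 4.0.16, DESeq2 1.42.0, an adjusted p of 0.01 and leaving out each library. The genes, lists and tests were chosen with earlier results of these data known. All 10 genes are named. Of each list, counts and at most the 3 called genes with the largest fold change per comparison are named, and Hic1 is given also where it was not called. Ccar2, Rps19bp1, other genes of the de novo route and markers of stromal cells and macrophages are named outside this rule. Some items of the lists are not reported here and stay out of their counts. Lists of B and plasma cell, T and NK cell, endothelial and neutrophil markers were also read.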

Additional observations from a re-analysis of the deposited data

Results flagged for a closer look

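Of 30 sets of 6 libraries (10 genes in 3 groups), 3 had a library whose gap to the nearest other was too large for its range by Dixon's 95% limit, where chance flags about 1 in 20. Sirt5 was at 191.2 normalized counts in rejuvenated old replicate 3, with the next library at 248. Sirt6 was at 1110.0 in young replicate 1, with the next at 1019. Cd38 was at 1.03, a single read, in young replicate 6, with the next at 5.33.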

How the results depend on the processing

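The count of called genes between young and old stayed at 5 to 7 of 9 in every setting, leaving out each library included. Between rejuvenated old and old MSCs it was 2, with 1 to 3 when leaving out a library, 1 to 3 in the other settings and 1 at an adjusted p under 0.01. Between rejuvenated old and young MSCs it was 7, with 4 to 7 when leaving out a library and 4 at an adjusted p under 0.01. Subtracting the chromosome median turned the sign of a called gene 3 times, of Nampt in young against old (0.15) and in rejuvenated old against young (-0.0819), and of Sirt5 in the latter (-0.114). It also turned Sirt5 (0.128) and Nmnat1 (0.0687) in young against old, which were not called. Fitting the replicate number as a block gave 5, 2 and 6 calls, as it lost Sirt7 in rejuvenated old against young (adjusted p = 0.0522). Same-numbered libraries did not deviate together (r of -0.152 to 0.0736 over 18 pairs of libraries), so the numbers are not taken as pairs. Of the log2 fold changes of the 10 genes, 489 of 540 values with a library left out and 328 of 369 in other settings were counted as kept. Kept meant the same direction and the same side of the threshold. Values less the chromosome median, among the other settings, have no p, and were counted as kept only if they moved by less than the pooled SD between libraries. Of the calls lost, 17 were of Sirt7, 15 of Sirt4, 7 of Sirt5, 7 of Cd38 and 1 of Sirt2, the first 3 genes in rejuvenated old against young. The cause was not tested. The calls of Sirt4, Sirt5 and Sirt7 changed with the setting and with the library left out, and Cd38 rests on 1 to 21 reads.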

Other observations

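Many markers of other cell types were near the floor. Of 7 B and plasma cell markers, Cd79b and Ms4a1 had at most 3 reads in every library of all 3 groups, and 1 passed the filter for testing. Of 8 T and NK cell markers 5 were at that level in every group (Cd3e, Cd3d, Cd8a, Nkg7 and Klrb1c). Of 8 neutrophil markers, 5 in young and 6 in old and rejuvenated old libraries were so. The one that was tested, Camp, averaged 35.0 normalized counts in young libraries, against 227 in old and 147 in rejuvenated old ones, and was called in all 3 comparisons. The summed endothelial markers were 6995 to 7345 normalized counts in young libraries, 146 to 193 in old and 186 to 556 in rejuvenated old, and Tie1 had at most 3 reads in every library. Cd34, with a mean of 7006 in young libraries, made up most of the first sum. It also made up most of the 556, with 402 in rejuvenated old replicate 1, against 24.2 to 41.9 in the other co-cultured libraries. Of the 4 endothelial markers tested between young and old MSCs, 3 were called higher in young and 1 lower. The lower one was Vwf, which averaged 51.9 normalized counts in young MSCs against 127 in old MSCs. Sdc1, which stromal cells can also express, made up most of the B and plasma cell sum, with a mean of 1201 in young libraries, against 11179 in old and 10199 in rejuvenated old ones.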
